A study of Mus musculus with 6 samples.

Results

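The genes described here are 48 topoisomerases and DNA repair genes, chosen by name as direct or downstream players in the response to topoisomerase poisons, and 47 of them had a probe set of their own on the array, out of 19937 genes tested (0.236%). Xrcc2, a paralog of the central recombinase, was the member without one. RNA of 2 untreated mouse pheochromocytoma lines, MTT and MPC, was read on Mouse Gene 1.0 ST arrays of Affymetrix, 6 in all and 3 for each line. The MPC line came from Nf1 knock-out mice and is described as well differentiated, and the MTT line was grown out of liver metastases formed by MPC cells and is described as fast growing and aggressive. Each line is a single culture line, so a difference between them is a difference between these lines and not between classes of tumor. The source and growth fields of the labels are the same on all 6 samples and name metastatic tumor and MTT cells, so the MPC grouping rests on the titles and the cell type field. Whether the 3 samples of a line were grown apart is not stated, and the p-values therefore rest on the spread among these arrays alone, which may be technical.

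Topoisomerases cut and reseal DNA to release the torsion that replication and transcription build up. Camptothecins such as topotecan and rubitecan trap topoisomerase I on the DNA it has cut, and anthracyclines and bis-dioxopiperazines act on topoisomerase II. The trapped enzyme is removed by phosphodiesterases, the break it leaves is sensed by kinases of the Atm and Atr families, and recombination, end joining and the Fanconi pathway mend it. The study screened a library of drugs, inhibitors of topoisomerases among them, against the viability of MTT cells, and the comparison asks how far the lines differ in the targets of these drugs and in the genes that mend the damage.

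These genes differed by small amounts between the lines. Of the 47, 2 were higher in MTT cells, Rmi1 and Tdp2, and 5 were lower, Top1mt, Wrn, Chek2, Pms2 and Atm, at a Benjamini-Hochberg adjusted p under 0.05 over all genes (limma, two-sided). That is 4.26% and 10.6% of them, beside 3.93% of all genes that were called higher and 3.94% called lower. No member differed 2-fold. In bulk RNA, fewer cells that express a gene and less RNA per cell cannot be told apart. The differences of log2 signal, MTT minus MPC, ran from -0.23 to 0.26, with a median of -0.02 beside -0.01 for all genes, and 19 were positive and 28 negative. Taken without sign, the median difference was 0.069, larger than the 0.050 of all genes. The calls other than Rmi1 lay near the threshold. All 6 were lost when every probe set of the array was tested (adjusted p 0.0542 to 0.115), Top1mt, Tdp2, Chek2 and Pms2 with ordinary variances (0.0770 to 0.101), and Atm, Chek2 and Pms2 after centring each array on its median (0.0599 to 0.0897).

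All of the 47 but Palb2 lay above the median log2 signal of 7.74 over all probe sets, so the genes above that median are the nearer background. Of those 11415 genes 5.87% were called higher and 5.97% lower, and their median difference without sign was 0.054. At an unadjusted p under 0.05, 4 of the 47 were higher (8.51%) and 13 lower (27.7%), beside 8.84% and 11.7% of all genes and 12.4% and 15.4% of the genes above the median signal. In 5 members all 3 MTT arrays lay above all 3 MPC arrays, and in 18 they lay below (10.6% and 38.3%). Over all genes these shares were 11.7% and 15.4%, and over the genes above the median signal 16.7% and 21.3%. The plot of all members by pathway shows where these fall.

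**Figure D1:**
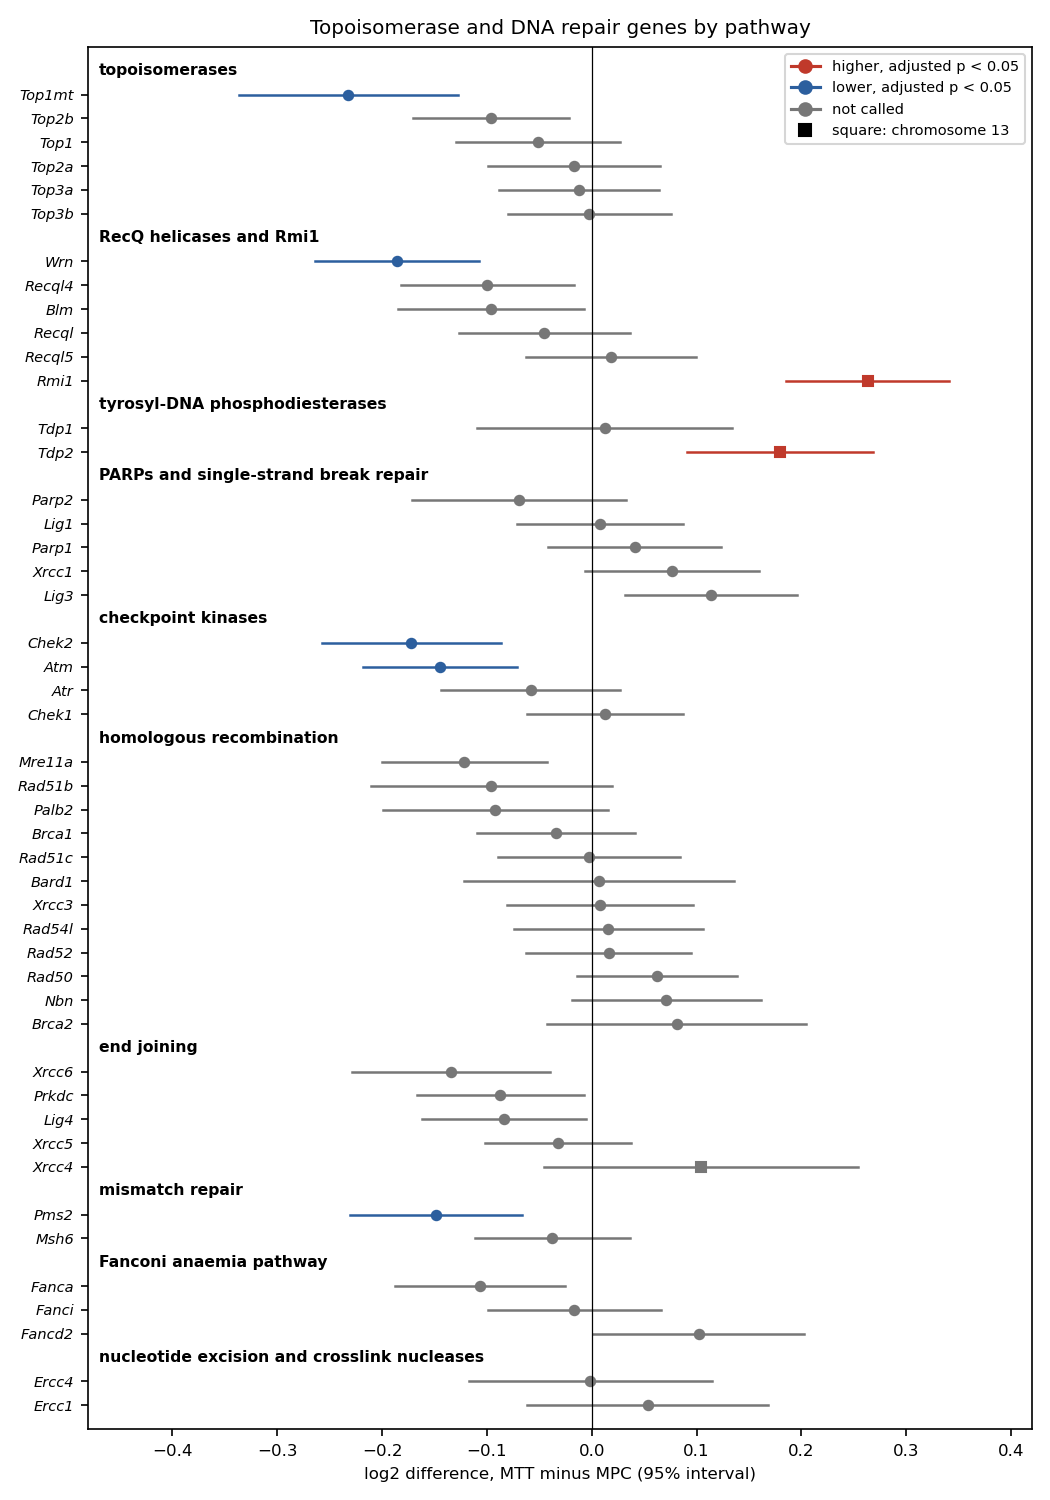
Log2 difference of RMA signal, MTT minus MPC (x axis), of the 47 measured genes grouped by pathway, with 95% intervals of the limma fit over 3 arrays per line. Red and blue mark the 2 genes called higher and the 5 called lower, gray the 40 not called, and squares the 3 genes of chromosome 13.

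The precision was enough to bound the genes that were not called. A 95% interval of a member's difference reached a median of 0.08 to either side on the log2 scale and at most 0.15. For all 40 genes that were not called the whole interval lay inside a 1.2-fold difference (0.263 on the log2 scale). The intervals of the called genes Atm, Chek2 and Pms2 lay inside it too. This bound therefore does not set the genes that were not called apart from those that were. RMA signals hold some background, which compresses folds of dim genes, so these bounds are bounds on the signal.

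The labelled tissue was checked with marker genes. Of 11 chromaffin cell markers 10 were measured, and their log2 signals averaged 8.56 to 13.48. Their summed linear signal ranged from 45950 to 47000 in MTT and from 46740 to 47370 in MPC cells. That sum rests mostly on the brightest markers. One by one, 2 of the 10 were called higher in MTT cells, the vesicular amine transporter Slc18a1 (0.27, adjusted p = 0.0042) and the lineage factor Gata3 (0.19, adjusted p = 0.0445), and the granule protein Chgb was lower (-0.15, adjusted p = 0.0233). Among all genes 3.93% were called higher and 3.94% lower, and a list of 10 genes is too short to read a share from. Slc18a1 was called with each array left out, Gata3 only without MTT sample 2 (0.0825 to 0.148 without each of the others) and Chgb only without MPC sample 3 (0.0546 to 0.0984). The part of these markers in the differences of the repair genes was not tested. Since MTT cells came from liver, 8 hepatocyte markers were read too. Only 1 of the 8, Apoa2, lay above the median signal. It was lower on all MTT arrays without a call (-0.15, adjusted p = 0.0645), and none of the 8 was called. Alb, the gene of serum albumin, averaged 6.32 in MTT and 6.28 in MPC cells, and the summed signal of the 8 was 996 to 1053 and 1037 to 1073. The sums of 6 fibroblast markers (1218 to 1294 and 1235 to 1354), 5 leukocyte markers (668 to 701 and 668 to 691) and 4 endothelial markers (475 to 488 and 451 to 524) overlapped between the lines. All 6 arrays held different values.

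Among the 6 topoisomerases, a family that includes the targets of the drugs, Top1mt alone was called, and it was lower in MTT cells. Top1mt, the topoisomerase I of mitochondria, had log2 signals of 9.31, 9.44 and 9.33 in MTT and 9.60, 9.64 and 9.54 in MPC cells. The lines did not overlap, and the second MTT array lay closest to the MPC arrays. The means were 9.36 ± 0.07 (SD, n = 3) and 9.59 ± 0.05 (SD, n = 3), a difference of -0.23 ± 0.05 (SE, adjusted p = 0.0183), or 1.17-fold on the linear scale. Without MTT sample 1, MTT sample 3, MPC sample 1 or MPC sample 2 the call was lost, with adjusted p of 0.0592 to 0.0747.

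Top1, the nuclear enzyme that camptothecins trap, had log2 signals of 11.31, 11.30 and 11.31 in MTT and 11.39, 11.38 and 11.31 in MPC cells. The MTT arrays all lay below the MPC arrays, though the lowest MPC array came within the second decimal of them. The difference was -0.05 (95% interval -0.13 to 0.03, adjusted p = 0.454). Top2a, the topoisomerase II of dividing cells and a target of anthracyclines, had signals of 12.63, 12.65 and 12.70 in MTT and 12.66, 12.66 and 12.71 in MPC cells. These overlapped fully, with a difference of -0.02 (95% interval -0.10 to 0.07, adjusted p = 0.860).

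Top2b, the isoform that dividing and resting cells share, had log2 signals of 10.19, 10.18 and 10.15 in MTT and 10.27, 10.24 and 10.29 in MPC cells. All MTT arrays were below the MPC arrays, and the difference of -0.10 did not pass (95% interval -0.17 to -0.02, adjusted p = 0.134). It did pass where only the genes above the median signal were tested (adjusted p = 0.0440). Top3a, which unlinks crossed DNA strands together with the Blm helicase, read 9.33, 9.29 and 9.27 in MTT and 9.31, 9.33 and 9.29 in MPC cells. Top3b, which works on RNA as well as DNA, read 10.89, 10.91 and 10.85 against 10.90, 10.86 and 10.90. Both overlapped between the lines, with adjusted p of 0.893 and 0.983. All 6 differences were negative in sign. That of Top3b was -0.002 and turned positive with another scaling of the arrays, and the plot of the topoisomerases and called genes by array shows how small the others are beside Top1mt.

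**Figure D2:**
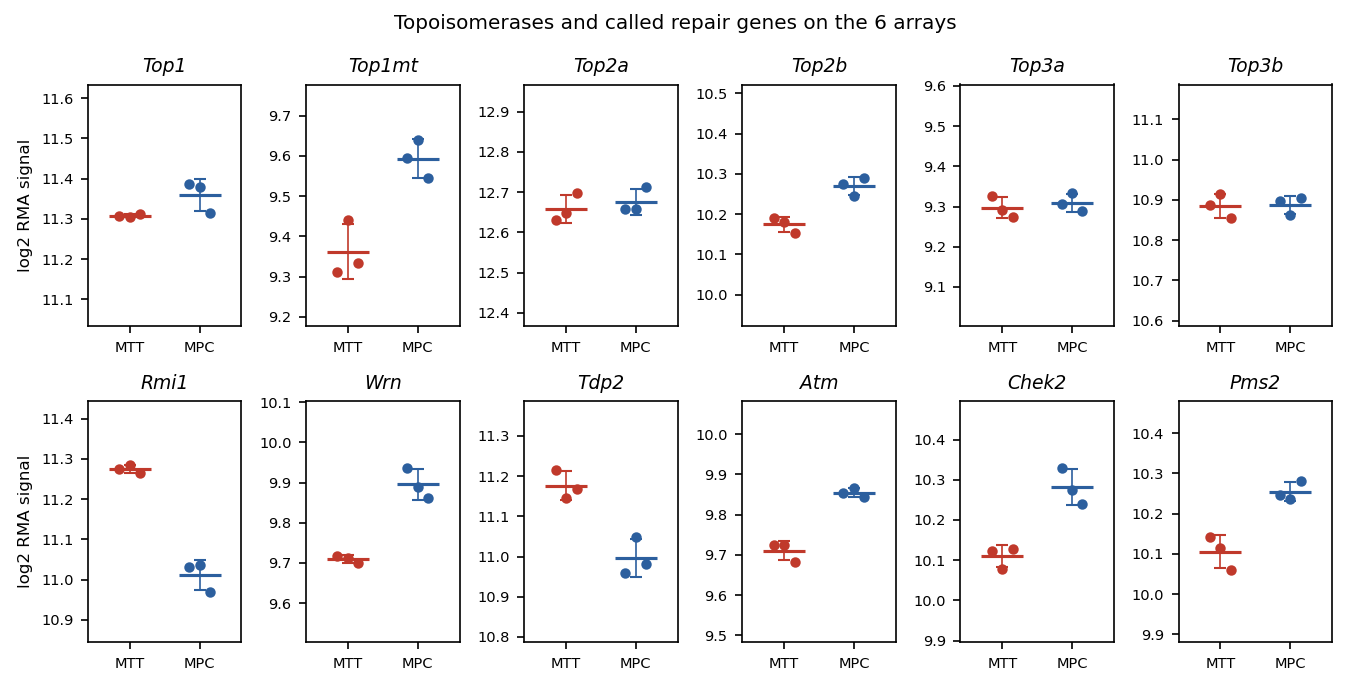
Log2 RMA signal (y axis, each panel spanning the same height) of the 6 topoisomerases and of the other 6 called genes on each array, MTT in red and MPC in blue, with the mean and SD of 3 arrays per line as bars. Top1mt, Rmi1, Wrn, Tdp2, Atm, Chek2 and Pms2 separate clearly by line, and Top2a, Top3a and Top3b overlap.

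Top2a is known as a gene of the cell cycle, and a stretch before its start is shown for a short word that many such genes carry. In RefSeq's GRCm38.p6 sequence the word TTTGAA, or TTCAAA on the other strand, read here as like the cell cycle homology region (CHR), stands in capitals just before the Top2a start at chr11:99024190-99024242, minus strand.
Top2a: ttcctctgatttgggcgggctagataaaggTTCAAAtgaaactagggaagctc
Counted from the first base of the word, the start lies 23 bases downstream. Over all 32851 promoters, taken as 250 bases before and 50 after a start, 17.9% held this word, as did 14.8% of those of genes tested, and 4 of the 46 promoters of these genes did (8.7%), those of Top2a, Bard1, Rad51b and Tdp1. None of these 4 genes was called between the lines.

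The RecQ helicases and their partner Rmi1 gave the largest differences in both directions outside the topoisomerases. Rmi1, which binds Blm and Top3a and steers them to dissolve crossed recombination intermediates, was higher in MTT cells. Its log2 signals were 11.28, 11.29 and 11.27 in MTT and 11.03, 11.04 and 10.97 in MPC cells. The gap between the lines was several times the spread within either. The means were 11.28 ± 0.01 (SD, n = 3) and 11.01 ± 0.04 (SD, n = 3), a difference of 0.26 ± 0.03 (SE, adjusted p = 0.0029), or 1.2-fold. A second probe set of Rmi1 gave 0.21 (unadjusted p = 0.0031). Rmi1 was the only member called under every alternative that tested it, leaving out each array in turn included.

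Rmi1 is a gene of chromosome 13, where differences were positive as a rule, as set out further on. It starts back to back with Hnrnpk, an RNA-binding protein gene on the opposite strand, and the bases between the starts, chr13:58402118-58402247 in GRCm38.p6, are shown on the strand of Rmi1 because 1 gene of the pair was called and the other was not.
Rmi1 to Hnrnpk: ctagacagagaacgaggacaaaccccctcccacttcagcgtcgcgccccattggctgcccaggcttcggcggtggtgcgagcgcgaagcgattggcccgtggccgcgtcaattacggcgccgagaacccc
Hnrnpk read 13.08 in MTT and 13.06 in MPC cells, a difference of 0.02 (adjusted p = 0.790) on the same chromosome and 131 bases away. Whether Rmi1 and Hnrnpk differ from each other in this was not tested.

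Wrn, a RecQ helicase that also carries an exonuclease and guards replication forks, was lower in MTT cells. Its log2 signals were 9.72, 9.71 and 9.70 in MTT and 9.94, 9.89 and 9.86 in MPC cells, without overlap. The means were 9.71 ± 0.01 (SD, n = 3) and 9.90 ± 0.04 (SD, n = 3), a difference of -0.19 ± 0.03 (SE, adjusted p = 0.0141), or 1.14-fold. Without any one of the MTT samples, or without MPC sample 1, the adjusted p was 0.0504 to 0.0590.

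The other RecQ helicases did not pass. Blm, the partner of Top3a and Rmi1, read 9.75, 9.72 and 9.71 in MTT and 9.86, 9.85 and 9.76 in MPC cells. Recql4, which helps to start replication, read 9.58, 9.60 and 9.53 against 9.70, 9.67 and 9.64. In both the MTT arrays were all lower, by 0.10 on the log2 scale, with unadjusted p of 0.0373 and 0.0236 and adjusted p of 0.206 and 0.159. Recql and Recql5, the latter a brake on recombination, overlapped between the lines with differences of -0.05 and 0.02.

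Of the tyrosyl-DNA phosphodiesterases, which cut trapped topoisomerases off DNA ends, Tdp2 was higher in MTT cells and Tdp1 was not called. Tdp2 acts on topoisomerase II, and its log2 signals were 11.22, 11.14 and 11.17 in MTT and 10.96, 11.05 and 10.98 in MPC cells. The lines did not overlap, and MPC sample 2 lay nearest to the MTT arrays. The means were 11.18 ± 0.04 (SD, n = 3) and 11.00 ± 0.05 (SD, n = 3), a difference of 0.18 ± 0.04 (SE, adjusted p = 0.0268), or 1.13-fold. The call held without MPC sample 2 and was lost without any one of the other 5, with adjusted p of 0.0647 to 0.101. Tdp2 too lies on chromosome 13, and its difference from the median of that chromosome's genes was -0.004.

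Tdp1, which acts on topoisomerase I, had log2 signals of 11.01, 10.96 and 10.86 in MTT and 11.01, 10.92 and 10.86 in MPC cells. The spread within each line was wider than the gap between them, and the difference was 0.01 (95% interval -0.11 to 0.13, adjusted p = 0.937). The plot of deviations by array shows both patterns side by side.

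**Figure D3:**
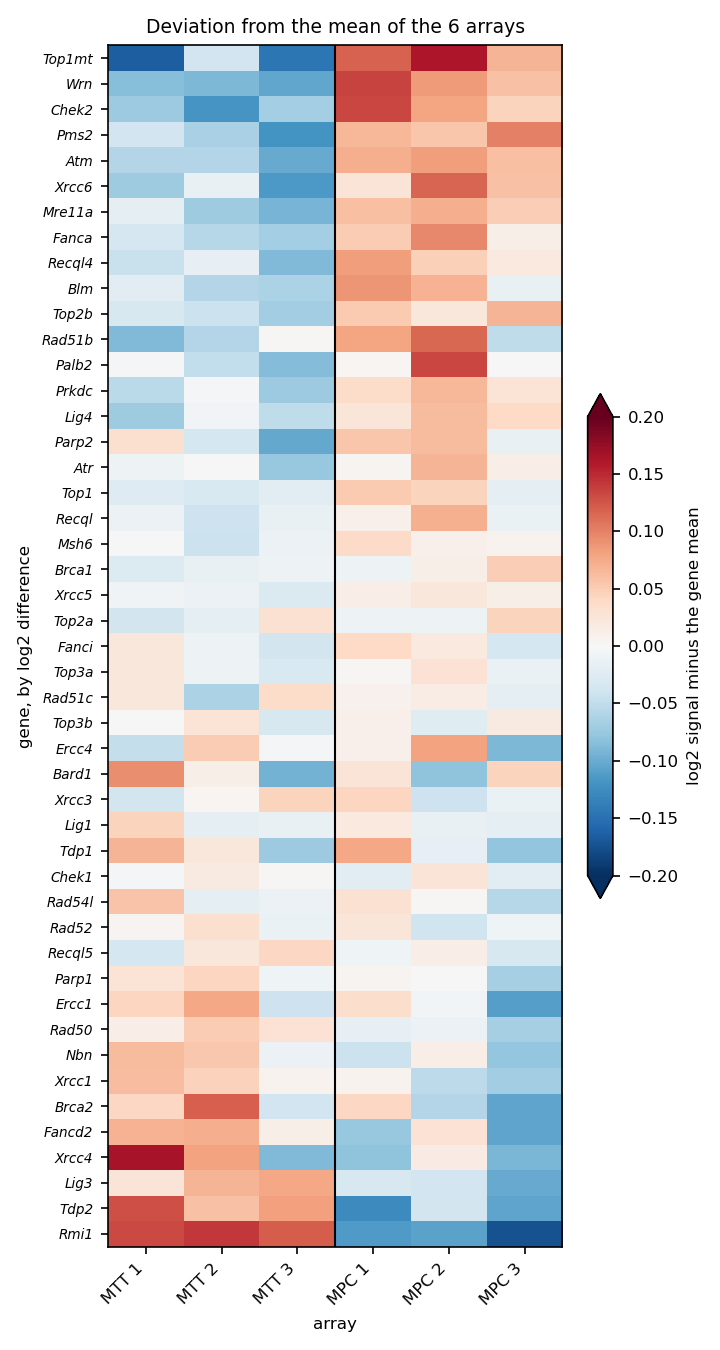
Log2 RMA signal of each of the 47 genes (y axis, ordered by the MTT minus MPC difference) on each of the 6 arrays (x axis), as the deviation from the gene's mean over the arrays in color. Colors are cut at 0.20 to either side. Top1mt, Wrn, Chek2, Pms2 and Atm are low on all MTT arrays and Rmi1 and Tdp2 high on all. Among the 47 genes the MTT arrays all lie below the MPC arrays in 18 and above them in 5, and in the rest the lines overlap.

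Single-strand breaks, the first lesion a trapped topoisomerase I leaves, are handled by the PARP enzymes and the Xrcc1 ligase complex, and none of these 5 genes passed in limma, with 1 higher at an unadjusted p under 0.05. Lig3, the ligase that Xrcc1 carries, came nearest, with log2 signals of 9.59, 9.63 and 9.64 in MTT and 9.53, 9.53 and 9.47 in MPC cells. All MTT arrays were higher, and the difference was 0.11 (95% interval 0.03 to 0.20, adjusted p = 0.108, and 0.0348 among the genes above the median signal). Xrcc1 itself, the scaffold, read 9.92, 9.91 and 9.87 against 9.87, 9.81 and 9.79, higher on all MTT arrays by a mean of 0.08 (adjusted p = 0.281). Parp1 and Parp2, which mark the break with poly(ADP-ribose), gave 0.04 and -0.07, and Lig1, the ligase of the replication fork, gave 0.01. These 3 overlapped between the lines.

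Of the checkpoint kinases, the pair that answers double-strand breaks was lower in MTT cells, and the pair that answers replication stress was not called. Atm, the kinase that broken ends activate, had log2 signals of 9.72, 9.72 and 9.68 in MTT and 9.85, 9.87 and 9.84 in MPC cells. Its arrays were tight within each line and did not overlap. The means were 9.71 ± 0.02 (SD, n = 3) and 9.85 ± 0.01 (SD, n = 3), a difference of -0.14 ± 0.03 (SE, adjusted p = 0.0307). The adjusted p rose to between 0.0570 and 0.108 when any one of the 6 samples was left out.

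Chek2, which Atm switches on, had log2 signals of 10.12, 10.08 and 10.13 in MTT and 10.33, 10.27 and 10.24 in MPC cells, without overlap. The means were 10.11 ± 0.03 (SD, n = 3) and 10.28 ± 0.05 (SD, n = 3), a difference of -0.17 ± 0.04 (SE, adjusted p = 0.0270), or 1.13-fold. The call held without MPC sample 3 and was lost without any one of the other 5 samples (adjusted p 0.0669 to 0.111). Its promoter held the word GCGGGAAA, the other strand of TTTCCCGC, which resembles sites of the cell cycle factor family E2F, shown here in capitals at chr5:110839801-110839868, plus strand.
Chek2: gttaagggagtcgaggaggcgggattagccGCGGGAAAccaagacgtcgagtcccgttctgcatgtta

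Atr, the kinase of stalled forks, had log2 signals of 9.86, 9.87 and 9.79 in MTT and 9.88, 9.94 and 9.88 in MPC cells, lower on all MTT arrays by a mean of 0.06 that did not pass (adjusted p = 0.431). Chek1, its effector, overlapped between the lines at 11.53, 11.55 and 11.54 against 11.51, 11.56 and 11.51 (difference 0.01, 95% interval -0.06 to 0.09, adjusted p = 0.883). Whether the differences of Atm and Chek2 were larger than those of Atr and Chek1 was not tested.

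Of the 12 measured genes of homologous recombination, which copies the lost stretch from the sister chromatid, none passed in limma and 1 was lower at an unadjusted p under 0.05. In sign 7 were positive and 5 negative, with a median difference of 0.01. The subunits of the complex that senses broken ends differed in sign. Mre11a, its nuclease, had log2 signals of 10.86, 10.80 and 10.78 in MTT and 10.93, 10.95 and 10.92 in MPC cells, all MTT arrays lower. The difference was -0.12 (95% interval -0.20 to -0.04, adjusted p = 0.0772). With a mean-variance trend it passed (adjusted p = 0.0145), as it did among the genes above the median signal (0.0218). Rad50, the bridge of the complex, read 10.94, 10.97 and 10.95 against 10.91, 10.91 and 10.86, all MTT arrays higher, a mean of 0.06 (adjusted p = 0.345), and Nbn, its remaining subunit, gave 0.07 (adjusted p = 0.360).

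The breast cancer susceptibility genes, whose products load the recombinase, were not called. Brca1 and its ubiquitin ligase partner Bard1 gave -0.03 and 0.01, Brca2, the loader, gave 0.08, and Palb2, which links Brca1 to Brca2, gave -0.09, with adjusted p of 0.628, 0.967, 0.450 and 0.317. The recombinase paralogs Rad51b, Rad51c and Xrcc3 gave -0.10, -0.003 and 0.01, the annealing protein Rad52 0.02, and the DNA translocase Rad54l 0.02. All of these overlapped between the lines apart from Palb2, whose MTT arrays were all lower. Brca2 and Bard1 carry E2F-like words before their starts, shown here as examples of members with such a word that were not called, to set beside Chek2. The stretches are chr5:150522423-150522490, plus strand, and chr1:71103144-71103211, minus strand, with the word in capitals.
Brca2: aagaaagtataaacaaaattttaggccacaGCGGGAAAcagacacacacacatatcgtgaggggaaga
Bard1: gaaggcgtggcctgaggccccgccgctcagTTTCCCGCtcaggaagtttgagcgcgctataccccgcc

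Across the E2F-like words TTTGGCGC and TTTCCCGC, both strands read, 7 of the 46 promoters of these genes held a match (15.2%), beside 1.56% of all promoters and 2.2% of the 19115 promoters of genes tested. They belong to Bard1, Brca2, Chek2, Msh6, Rad51c, Rmi1 and Xrcc6, of which 1 was called higher, 1 lower and 5 were not called. Promoter sequence was given for 38 of the 47 genes. A match is a description of the letters and says nothing of binding.

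End joining, which ligates broken ends without a template, gave no call in limma, and 3 of its 5 genes were lower at an unadjusted p under 0.05. In 4 of the 5 every MTT array lay below the MPC arrays. Over the genes above the median signal 15.4% were lower at that p and 21.3% lower on every MTT array, and a list of 5 genes is too short to read a share from. Xrcc6, the smaller of the Ku subunits that clamp the end, had log2 signals of 10.11, 10.17 and 10.07 in MTT and 10.21, 10.30 and 10.24 in MPC cells. The lines did not overlap, and the difference was -0.13 (95% interval -0.23 to -0.04, adjusted p = 0.0982). With a mean-variance trend it passed (adjusted p = 0.0290), as it did among the genes above the median signal (0.0328). Its promoter held an E2F-like word at chr15:82016293-82016360, plus strand.
Xrcc6: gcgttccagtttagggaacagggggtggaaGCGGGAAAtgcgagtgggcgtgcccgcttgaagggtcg

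Xrcc5, the larger Ku subunit, read 11.98, 11.98 and 11.96 in MTT and 12.00, 12.01 and 12.00 in MPC cells, a difference of -0.03 (adjusted p = 0.626). Lig4, the ligase, read 10.23, 10.30 and 10.25 against 10.33, 10.37 and 10.34, and Prkdc, the kinase subunit that Ku recruits, 9.48, 9.54 and 9.46 against 9.57, 9.60 and 9.57. Both were lower on every MTT array, by 0.08 and 0.09, with adjusted p of 0.209 and 0.200.

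Xrcc4, the scaffold of Lig4, went the other way with overlap, at 9.58, 9.50 and 9.33 in MTT and 9.34, 9.44 and 9.33 in MPC cells (difference 0.10, 95% interval -0.05 to 0.25, adjusted p = 0.421). It had the widest interval of the members, and it lies on chromosome 13. It starts back to back with Tmem167, a small membrane protein gene of the Golgi, and the bases between the starts, chr13:90089609-90089666, are shown on the strand of Xrcc4.
Xrcc4 to Tmem167: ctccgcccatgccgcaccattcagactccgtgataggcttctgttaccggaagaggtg
Tmem167 differed by 0.15 (adjusted p = 0.0793). With a mean-variance trend it passed (adjusted p = 0.0158), as it did among the genes above the median signal (0.0251).

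In mismatch repair, Pms2, a subunit of the endonuclease that nicks the strand carrying the error, was lower in MTT cells. Its log2 signals were 10.14, 10.12 and 10.06 in MTT and 10.25, 10.24 and 10.28 in MPC cells, without overlap. The means were 10.11 ± 0.04 (SD, n = 3) and 10.25 ± 0.02 (SD, n = 3), a difference of -0.15 ± 0.04 (SE, adjusted p = 0.0425). Of the members called it lay closest to the threshold, and leaving out any one of the 6 samples gave 0.0718 to 0.126. It starts back to back with Aimp2, a scaffold of the tRNA synthetase complex, and the bases between the starts, chr5:143909840-143910000, are shown on the strand of Pms2.
Pms2 to Aimp2: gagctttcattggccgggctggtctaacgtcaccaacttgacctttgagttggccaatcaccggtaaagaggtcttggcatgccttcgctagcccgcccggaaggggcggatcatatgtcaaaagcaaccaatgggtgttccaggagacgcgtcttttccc
Aimp2 differed by 0.04 (adjusted p = 0.670), and a difference between the genes of this pair was not tested. Msh6, a mismatch-binding protein, read 10.47, 10.43 and 10.46 against 10.51, 10.48 and 10.48, lower on all MTT arrays by a mean of 0.04 (adjusted p = 0.578).

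The Fanconi pathway, which undoes crosslinks between strands, gave no call in limma among its 3 members, with 1 higher and 1 lower at an unadjusted p under 0.05. Fanca, of the core complex, had log2 signals of 10.02, 9.999 and 9.99 in MTT and 10.11, 10.15 and 10.07 in MPC cells, lower on all MTT arrays, with a difference of -0.11 (adjusted p = 0.127, and 0.0427 among the genes above the median signal). Fancd2, which the core complex marks with ubiquitin, read 10.54, 10.54 and 10.48 against 10.40, 10.50 and 10.37, overlapping, with a difference of 0.10 (adjusted p = 0.240). Fanci, which is marked together with it, gave -0.02. Neither subunit of the crosslink nuclease, Ercc1 and Ercc4, was called or had an unadjusted p under 0.05. Ercc1 read 9.59, 9.63 and 9.51 in MTT and 9.59, 9.54 and 9.44 in MPC cells (difference 0.05, adjusted p = 0.620), and Ercc4 differed by -0.001.

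Both members called higher lie on chromosome 13, and chromosome position moved with the direction of change in repair genes at large. Among genes above the median signal, the median difference was 0.18 on chromosome 13 (407 genes, 242 of them called higher) and -0.11 on chromosome 19 (379 genes, 104 called lower), and between -0.03 and 0.02 on the other autosomes and X. Of the 47 members 3 lie on chromosome 13, Rmi1, Tdp2 and Xrcc4, all with positive differences, and none on chromosome 19. Beside the median of chromosome 13, Rmi1 was 0.08 higher, Tdp2 -0.004 and Xrcc4 -0.08. Of the 44 members elsewhere none was called higher and 5 were called lower, with 16 positive, 28 negative and a median of -0.02. Of all 11415 genes above the median signal, 5.87% were called higher and 5.97% lower. Chromosome 13 held 242 of the 670 called higher, so the share elsewhere is smaller. The absence of a higher call among 44 genes is therefore not read as a result. The part of the chromosome in the differences of the members was not tested.

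**Figure D4:**
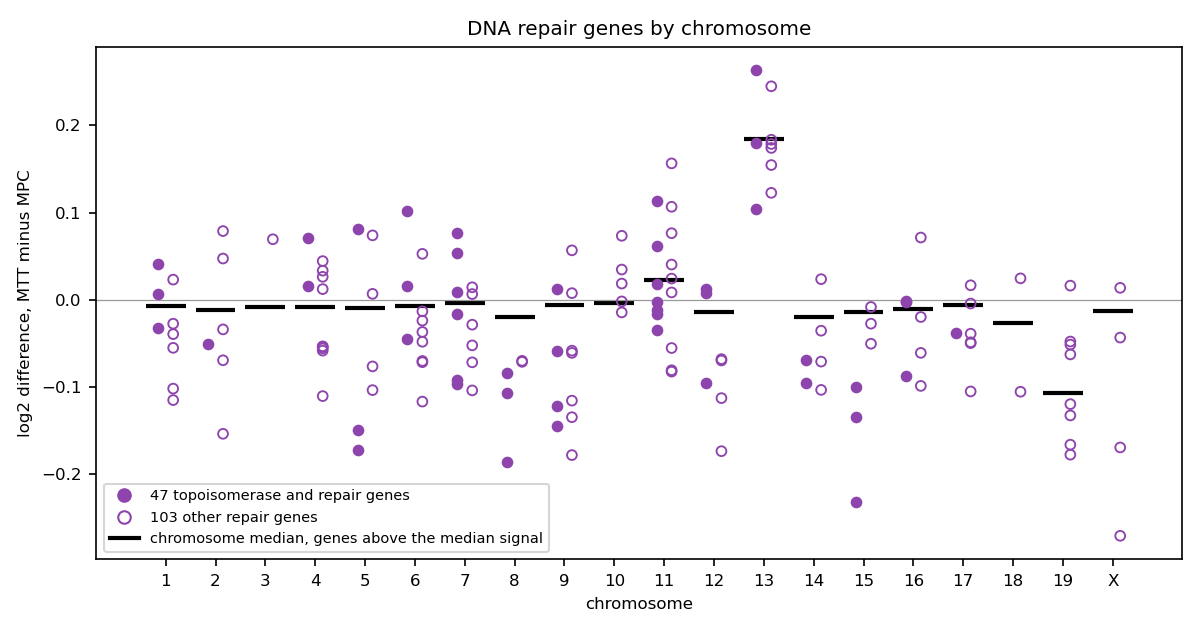
Log2 difference, MTT minus MPC (y axis), of the 47 genes (filled) and of 103 other repair genes (open) by chromosome (x axis), with black bars for the median of all genes above the median signal on that chromosome. All 9 repair genes of chromosome 13 lie above 0 and 7 of the 8 on chromosome 19 lie below. Of all genes above the median signal, 92.1% were positive on chromosome 13 and 12.4% on chromosome 19.

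A wider list of 116 other repair genes, 103 of them measured, gave 3 called higher (2.91%), 6 called lower (5.83%) and 94 not called, with a median difference of -0.04. The 3 called higher were again all on chromosome 13. They were Msh3, a mismatch-binding protein (0.24, adjusted p = 0.0067), Rad17, which loads a checkpoint clamp (0.18, adjusted p = 0.0345), and Polk, a polymerase that copies damaged bases (0.17, adjusted p = 0.0181). In 33 of the 103 genes the MTT arrays all lay below the MPC arrays (32%) and in 11 above (10.7%), beside 21.3% and 16.7% of the genes above the median signal. Of those genes 5.87% were called higher and 5.97% lower, so the calls of the wider list were no more frequent than theirs.

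The 6 called lower were spread over chromosomes. Fancb, of the Fanconi core complex, fell most, from a log2 mean of 9.72 ± 0.03 (SD, n = 3) in MPC cells to 9.45 ± 0.03 (SD, n = 3) in MTT cells (difference -0.27, adjusted p = 0.0028). Gen1, which resolves crossed strands, gave -0.17 (adjusted p = 0.0147), Parp3, a PARP of double-strand breaks, -0.18 (0.0442), and Mcm8, a helicase of recombination, -0.15 (0.0350). The remaining pair, the crosslink nuclease Dclre1a (-0.17, adjusted p = 0.0229) and the chromosome structure gene Smc5 (-0.13, adjusted p = 0.0489), lie on chromosome 19. Msh3 and Fancb were called with each array left out, and the other 7 were not. Gen1 lost its call without MTT sample 1, MTT sample 3 or MPC sample 2 (adjusted p 0.0573 to 0.0611), and Polk without MPC sample 1 or any one MTT sample (0.0511 to 0.0817). Dclre1a (0.0544 to 0.0802), Mcm8 (0.0731 to 0.125) and Parp3 (0.0815 to 0.153) kept theirs without MPC sample 3, Rad17 (0.0642 to 0.122) without MPC sample 2, and Smc5 (0.0708 to 0.165) in no such case. The values in parentheses are those without each of the other samples.

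Over members and other repair genes together, all 9 genes on chromosome 13 were positive and 5 were called higher, with a median of 0.18. Of the 407 genes of that chromosome above the median signal, 92.1% were positive and 59.5% were called higher. The counts of the 9 repair genes lie near these shares. The 133 genes on chromosomes other than 13 and 19 gave no gene called higher and 9 called lower, and 88 of them were negative. Of the 11415 genes above the median signal, those of chromosomes 13 and 19 included, 6119 were negative. Of these 11415 genes 5.87% were called higher and 5.97% lower. Chromosome 13 held 242 of the 670 called higher and chromosome 19 held 104 of the 681 called lower. The shares on the other chromosomes are therefore smaller, and this background is not a like one for the 133 genes.

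Targets of p53, which damage signalling switches on, and genes of replication were read beside the repair genes. Of 15 measured p53 target genes 2 were higher, Plk2, a polo-like kinase on chromosome 13 (0.55, adjusted p = 0.00011), and Phlda3, an inhibitor of AKT (0.20, adjusted p = 0.0205), and Trp53inp1, a p53-induced stress protein, was lower (-0.21, adjusted p = 0.0072). Over all genes 3.93% were called higher and 3.94% lower, and a list of 15 genes is too short to read a share from. The call of Phlda3 held without MTT sample 2 and was lost without any one of the other 5 (0.0532 to 0.0674). Of 15 measured replication and proliferation genes none was called in limma, with a median of -0.01 and a range of -0.07 to 0.06. Mcm4, of the replicative helicase, was the only one at an unadjusted p under 0.05 (-0.07, adjusted p = 0.223).

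Many repair genes begin next to a gene that runs the opposite way. Of the 38 members with a promoter sequence 19 had such a start within 1000 bases upstream (50%), beside 14.4% of the genes tested. This look at neighbours was chosen after the values were seen and is a description. For 17 of them the neighbour was measured. Among all genes 3.93% were called higher and 3.94% lower, and 17 neighbours are too few to read a share from. Of the 17, 1 was called, Tex14, a germ cell gene opposite Rad51c (-0.18, adjusted p = 0.0176), while Rad51c itself differed by -0.003. Tex14 was dim, with a mean log2 signal of 6.87, below the median of 7.74. Its call held without MTT sample 3 or MPC sample 3. It was lost without any one of the other samples (adjusted p 0.0582 to 0.0802) and over all probe sets (0.0630). Opposite the called members, Npat beside Atm gave 0.01, Aimp2 beside Pms2 0.04 and Hnrnpk beside Rmi1 0.02. The members with a measured neighbour that were lower on all MTT arrays without a call were Xrcc6, Lig4, Mre11a, Palb2 and Atr. Desi1 beside Xrcc6 gave 0.05, Abhd13 beside Lig4 0.02, Ankrd49 beside Mre11a -0.04 and Dctn5 beside Palb2 0.04. The transcript 1700065D16Rik beside Atr gave -0.21, the largest difference of the 17 neighbours in size (adjusted p = 0.0768). That transcript was dim too, with a mean log2 signal of 6.33. It was called without MTT sample 3 (adjusted p = 0.0461) and after centring each array on its median (0.049996). With a mean-variance trend Tmem167 beside Xrcc4 (0.0158) and Sap30bp beside Recql5 (0.0411) were called.

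**Figure D5:**
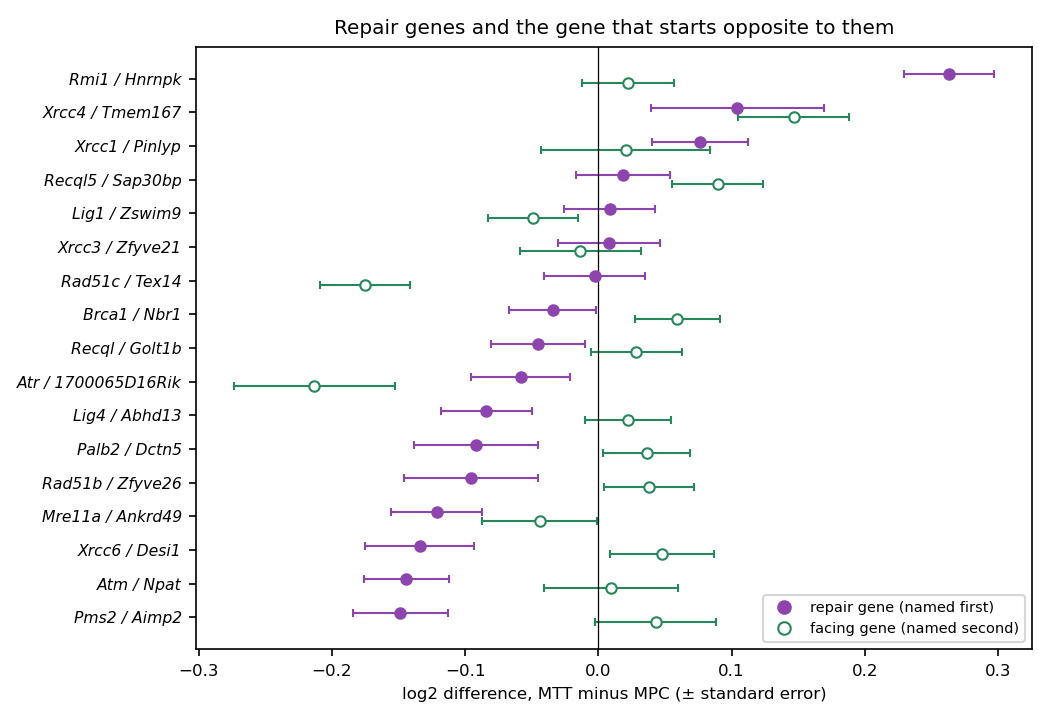
Log2 difference, MTT minus MPC, with its standard error (x axis) of 17 repair genes (filled, named first) and of the gene that starts opposite each within 1000 bases (open, named second). The neighbours of Rmi1, Atm and Pms2 lie near 0, and Tmem167 beside Xrcc4 lies at 0.15.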

How the data were processed

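RNA of 3 MTT and 3 MPC samples was read on 1 array each. The authors deposited log2 values after RMA, a method that removes background, equalises quantiles over arrays and merges the probes of each set. The submitters' notes also name Affymetrix Expression Console, with no version. Array depth cannot be counted, so the number of arrays limits precision.

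Of 34760 probe sets, 21640 had 1 gene symbol in the platform annotation, 1321 had several and 11799 are unnamed here. The brightest probe set was kept for 954 genes with several, which gave 19937 genes. Chromosomes came from RefSeq (GRCm38.p6, 19855 genes matched), as did promoter sequences. Lines were compared in limma 3.58.1 (lmFit, eBayes, two-sided) under R 4.3.3, with Benjamini-Hochberg adjustment over all genes and a threshold of 0.05. The methods name an ANOVA, run as the fit with ordinary variances. Figures were drawn with matplotlib 3.10.9 in Python 3.11.15. On simulated data with 19937 genes, 98 of 100 genes changed by 1 and 54 of 100 changed by 0.25 on the log2 scale were recovered, with 11 false calls among 163. Only these genes were changed there, and the noise was drawn independently for each gene and array. In the real comparison 1569 genes were called, so these rates need not carry over to it.

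Members and lists were chosen with earlier results of these data known. Values on all arrays were given for the topoisomerases, for every member with an unadjusted p under 0.05 and for the member with the smallest p of each of 10 pathway groups, and for some others whose arrays did not overlap, chosen after their values were seen. Of the other lists, the genes called were named. Alternatives were the mean of probe sets, ordinary variances, a replicate block, a mean-variance trend, genes above the median signal, all probe sets, median centring, cyclic loess with 3 iterations, leaving out chromosomes 13 and 19, subtracting the chromosome median and leaving out each array. Protein sequences were not analysed here.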

Additional observations from a re-analysis of the deposited data

How the results depend on the processing

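The 1569 genes called became 824 with ordinary variances, 2416 with a mean-variance trend, 942 over all probe sets and 891 to 1276 with an array left out. The 2 members called higher became 1 with ordinary variances, 1 with the replicate block, 1 over all probe sets, 0 without chromosomes 13 and 19, where they lie, and 1 to 2 with an array left out (2 only without MPC sample 2). The 5 called lower became 2 with ordinary variances, 3 with the replicate block, 9 among genes above the median signal, 0 over all probe sets, 2 after median centring, and 0 to 3 with an array left out (0 without MTT sample 1, MTT sample 3 or MPC sample 1). Where fewer genes or samples were tested the construction sets part of this, and for the others the cause was not tested. Tdp2 turned to -0.0044 once the median of chromosome 13 was subtracted. Over the alternatives 35 members were never called and Rmi1 always was where it was tested. Ercc4, Rad51c and Top3b, all within 0.01 of 0, changed sign with the scaling of the arrays. Whether the replicate numbers pair the samples is not stated, and the correlations between arrays are too weak to decide it. Same-numbered arrays correlated at 0.03, 0.02 and 0.12 in their deviations from the line means. The value of 0.12, between the samples numbered 3, was the largest of any pair across the lines. Not every array correlated best with its own number. With the replicate block Atm (adjusted p = 0.0513), Tdp2 (0.0566) and Pms2 (0.0741) lost their calls. The dim transcript 1700065D16Rik, the neighbour of Atr, was called with it (0.0476). An array shows signal over an unmeasured background, so small folds of dim genes stay unresolved.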
